A study of Mus musculus with 9 samples.

Results

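The 10 genes described here encode the EGR, FOS, JUN and ATF3 transcription factors, a set of immediate early regulators. They are Egr1, Egr2, Egr3, Fos, Fosb, Fosl1, Fosl2, Jun, Junb and Atf3. They were picked by gene name and make up 10 of the 56620 genes and loci in the deposited table. All 10 were among the 13831 genes tested, which averaged at least 1 FPKM over the 9 libraries. FPKM counts the sequenced fragments of a transcript, scaled to its length and to the size of the library. Fosb passed this filter through its values at 85% oxygen, since its 3 libraries in room air lay under 1 FPKM.

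RNA was taken from cultured mouse cells that the labels call pulmonary microvascular endothelial cells, the lining of the smallest lung vessels, which had been purchased. Cells labelled HO-rWNT5A were kept for 48 h at 85% oxygen with 100 ng/ml recombinant WNT5A, a secreted WNT ligand. Cells labelled HO had the same 48 h at 85% oxygen without the protein, and cells labelled RA had 48 h at 21% oxygen, the level of room air. Each of the 3 groups had 3 libraries, and nothing in the labels says that these came from separate cultures, so the p-values measure the spread between libraries, which may be technical. The mouse strain, its age and the passage of the cells are not given in the sources used here.

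Immediate early genes are transcribed within minutes of a growth factor or a stress, from factors already present in the cell. ERK, JNK and p38 kinases act on SRF with its ternary complex partners and on CREB, which sit at the promoters of these genes. FOS and JUN proteins pair through leucine zippers to form AP-1, EGR proteins bind GC-rich sites through zinc fingers, and ATF3 is a member of the ATF/CREB family that is raised by many stresses. EGR1 is known in vascular cells as an early factor in the response to injury and to altered oxygen.

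The marker genes of the labelled cell type were mostly near 0. Of 13 pan-endothelial markers, 10 averaged under 1 FPKM, among them Pecam1 at 0.0932 and Cdh5 at 0.0544 FPKM, while Flt1 ranged from 29.2 to 43.4 and Emcn from 8.51 to 11.6 FPKM. Of 10 smooth muscle and pericyte markers, 8 averaged at least 5 FPKM, with Acta2 at 1580 and Tagln at 888 FPKM. The other 2 were low, Myh11 at 0.237 and Rgs5 at 0.759 FPKM. An average of at least 5 FPKM was also reached by 3 of 8 fibroblast, 4 of 9 epithelial and 0 of 8 leukocyte markers. Dpt and Sftpc were at 0 in all libraries. The summed endothelial markers ranged over 40.7 to 50.5 FPKM in HO-rWNT5A, 49.4 to 55.9 in HO and 50.7 to 56.4 in RA libraries, and the smooth muscle sums over 2810 to 3220, 2520 to 3420 and 3040 to 3400 FPKM in the same order of groups. The fibroblast sums were 194 to 265 FPKM in HO-rWNT5A, 217 to 266 in HO and 268 to 286 in RA libraries, so that they were lower in all 6 libraries at 85% oxygen, by a narrow margin for HO. Collagens made up most of these sums, with Col1a1 averaging 184, Col1a2 45.3 and Col3a1 16.8 FPKM, while 4 of the 8 fibroblast markers averaged under 1 FPKM. The epithelial sums were 132 to 154, 134 to 171 and 133 to 160 FPKM, and the leukocyte sums 4.04 to 9.19, 4.19 to 10.9 and 5.47 to 6.77 FPKM, again in HO-rWNT5A, HO and RA libraries. The part of these marker levels in the results below was not tested, and in bulk RNA fewer cells of a type and less RNA per cell cannot be told apart. Depth was judged only roughly from the smallest values, at 21300000 to 26500000 fragments per library. Structural RNAs took 24.0 to 28.5% of all FPKM in HO-rWNT5A, 20.6 to 27.8% in HO and 21.9 to 25.4% in RA libraries. Ribosomal RNA and mitochondrial rRNA and tRNA were counted among them, besides small RNAs. The HO group had the widest spread, with a median SD per gene of 0.123 on the log2 scale, against 0.083 in HO-rWNT5A and 0.074 in RA.

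Several of the 10 factors were higher at 85% oxygen, with and without WNT5A, and none was lower. In HO against RA, 4 of the 10 rose, Egr1, Egr3, Fosl1 and Atf3, at 1.57 to 2.13 times the RA mean. In HO-rWNT5A against RA, 6 of the 10 rose, Egr1, Egr3, Fos, Fosb, Fosl1 and Atf3, at 1.34 to 1.88 times the RA mean. These calls are from limma on log2 of the scaled FPKM plus 1, over all genes tested, with an adjusted p under 0.05. By that rule 1.97% of all genes tested were called in HO against RA, and 4.34% in HO-rWNT5A against RA. The genes called as higher made up 1.19% and 2.42% of all genes tested in these comparisons. Fosb is 1 of the 6, but it was tested only because its libraries at 85% oxygen lifted its mean past the filter. Both comparisons use the same 3 RA libraries. The median log2 difference of the 10 genes was 0.38 in HO against RA, where the median over all genes tested was -0.01, and 0.41 in HO-rWNT5A against RA, where it was 0. In HO against RA, all 3 HO libraries lay above all 3 RA libraries for 8 of the 10 genes, and for 11.1% of all genes. For HO-rWNT5A and RA this held for 9 of the 10, all but Egr2, and for 16.2% of all genes. Fosb is among the 8 and the 9 and enters both medians, with the same limit from the filter.

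**Figure D1:**
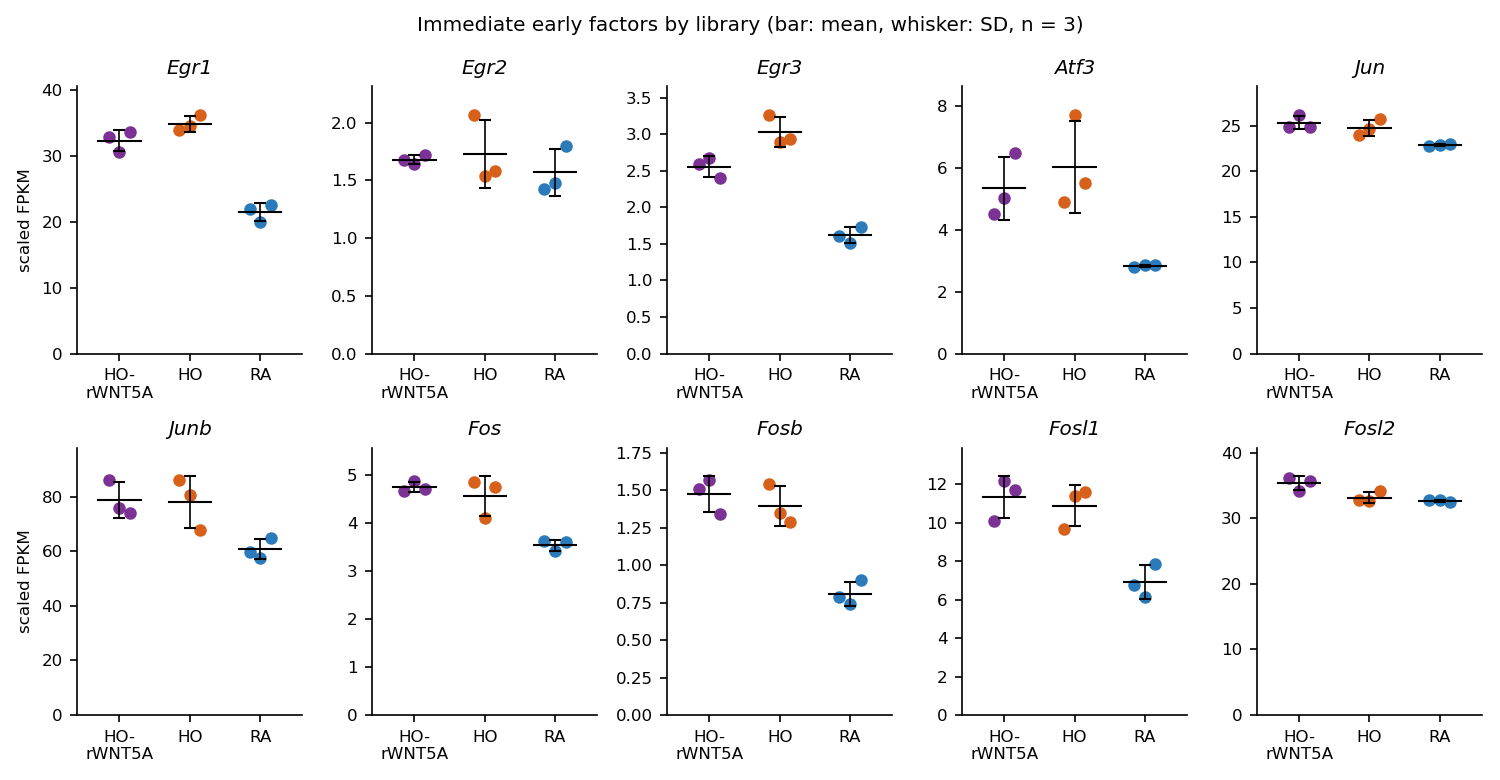
Scaled FPKM of each of the 10 genes (vertical axes, each from 0) in the HO-rWNT5A, HO and RA libraries, with 1 point per library, a bar at the mean and whiskers of 1 SD (n = 3). For Egr1 the 6 libraries at 85% oxygen sit between 30.6 and 36.3 and the RA libraries between 20.0 and 22.5, whereas the points of Egr2 overlap in all 3 groups.

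**Figure D2:**
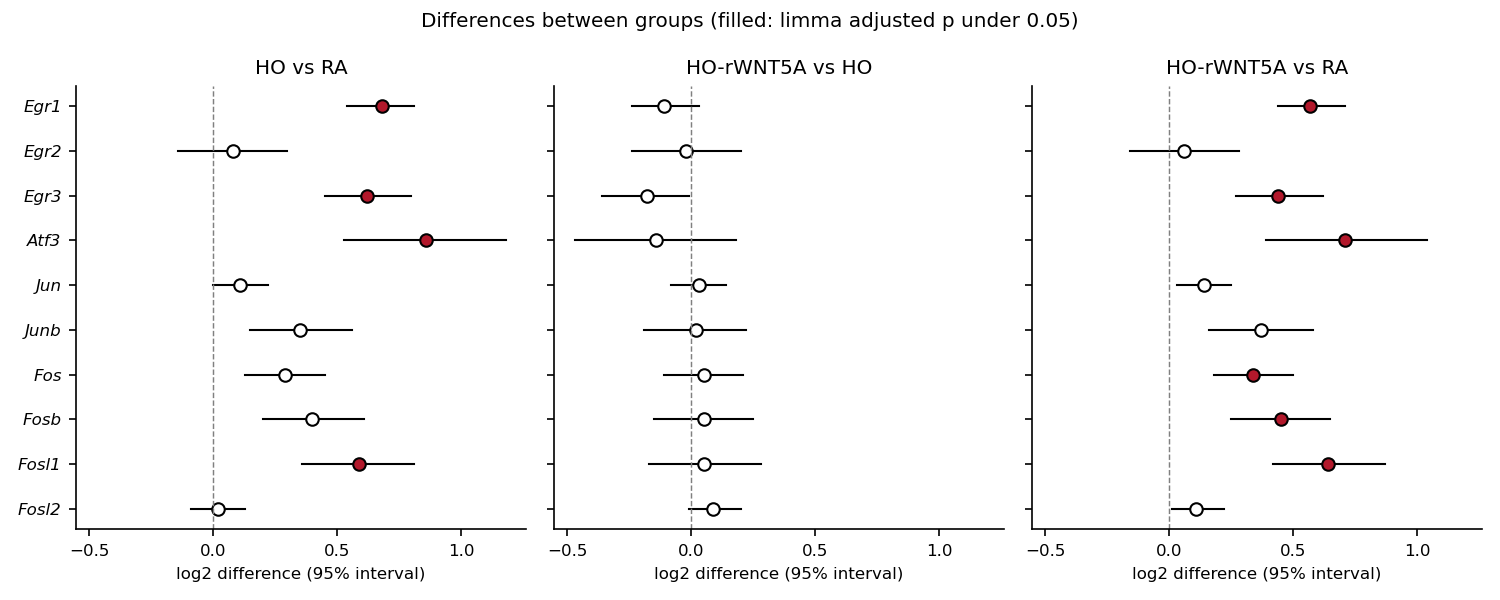
Log2 differences of the 10 genes (horizontal axes, on log2 of scaled FPKM plus 1) with 95% intervals, for HO against RA, HO-rWNT5A against HO and HO-rWNT5A against RA, with filled points where limma's adjusted p was under 0.05. In both comparisons with RA every point lies right of 0, with 4 and 6 filled points, and in HO-rWNT5A against HO the points lie on both sides of 0 and none is filled.

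The EGR factors differed among themselves. Egr1 (chromosome 18, 34859823 to 34864984, plus strand, GRCm38), a zinc-finger activator, had 32.9, 30.6 and 33.6 scaled FPKM in the HO-rWNT5A libraries, 33.9, 34.6 and 36.3 in the HO libraries and 22.0, 20.0 and 22.5 in the RA libraries. All 6 libraries at 85% oxygen were above all 3 in room air, and every HO library was above every HO-rWNT5A library. Egr1 averaged 34.9 ± 1.25 in HO and 21.5 ± 1.29 in RA (SD, n = 3 each), a log2 difference of 0.68 ± 0.061 (SE, limma adjusted p = 0.00699), and it ranked 1 by p among all genes tested in HO against RA. In HO-rWNT5A it averaged 32.4 ± 1.57, which was 0.57 higher than in RA on the log2 scale (limma adjusted p = 0.00354). It was the one member called in both comparisons with RA under all 23 alternative settings, with adjusted p of 0.00408 to 0.0444 in HO against RA and 0.00226 to 0.0227 in HO-rWNT5A against RA.

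Egr3 (chromosome 14, 70077203 to 70082614, plus strand), a close relative of Egr1 that binds the same kind of site, was far less abundant. It had 2.59, 2.68 and 2.40 scaled FPKM in HO-rWNT5A, 3.27, 2.89 and 2.94 in HO and 1.61, 1.51 and 1.73 in RA libraries. The 3 groups did not overlap, with HO highest and RA lowest. Egr3 rose in HO against RA by a log2 difference of 0.62 ± 0.079 (SE, limma adjusted p = 0.0118), at 1.88 times the RA mean, and in HO-rWNT5A against RA by 0.44 (limma adjusted p = 0.0167), at 1.58 times. Without RA replicate 2 its adjusted p in HO against RA was 0.0643, and in HO-rWNT5A against RA the call was lost without HO-rWNT5A replicate 1 (0.0564), HO-rWNT5A replicate 2 (0.0776), RA replicate 1 (0.0646) or RA replicate 2 (0.0665).

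Egr2 (chromosome 10, 67535475 to 67542188, plus strand), known for its part in myelination and in lymphocytes, had 1.68, 1.64 and 1.72 scaled FPKM in HO-rWNT5A, 2.07, 1.54 and 1.58 in HO and 1.43, 1.48 and 1.80 in RA libraries. The groups overlapped, and HO replicate 1 was the highest library. The log2 difference was 0.08 in HO against RA, with a 95% interval of -0.14 to 0.30 (limma adjusted p = 0.705), and 0.06 in HO-rWNT5A against RA (limma adjusted p = 0.768). The value of Egr2 rested on about 86 to 140 fragments per library, estimated from the FPKM and length of its transcripts and the rough depth, and that of Egr1 on about 2100 to 3600.

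Egr3 was the member whose value was split most between annotated transcripts. The spliced transcript Egr3-204, with 2 exons, held 42.5% of the gene's FPKM, and Egr3-202, annotated as a retained intron with 1 exon, held 53.7%. Egr3-204 had 0.796, 0.902 and 0.657 scaled FPKM in HO-rWNT5A, 1.61, 1.60 and 1.87 in HO and 0.395, 0.518 and 0.856 in RA libraries. The HO libraries were above all others, and the HO-rWNT5A and RA libraries overlapped. Egr3-202 had 1.74, 1.52 and 1.70 scaled FPKM in HO-rWNT5A, 1.43, 1.25 and 1.00 in HO and 1.16, 0.984 and 0.832 in RA libraries. Here the HO-rWNT5A libraries were the highest, and the HO and RA libraries overlapped. The retained-intron transcript was 67.2, 56.5 and 70.7% of Egr3 in the HO-rWNT5A libraries, 43.6, 43.2 and 34.0% in the HO libraries and 72.2, 65.1 and 48.2% in the RA libraries.

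Neither transcript passed the test across all 26146 transcripts. In HO against RA the log2 difference of Egr3-204 was 0.77 ± 0.13 (SE, limma adjusted p = 0.156), and in HO-rWNT5A against HO it was -0.59 ± 0.13 (SE, unadjusted p = 0.0018, limma adjusted p = 0.566). Egr3-204 averaged 1.02 FPKM and was tested only because of its HO libraries, since all others lay under 1 FPKM. Both differences are therefore not free of that filter. Fragments that lie in both transcripts can be assigned to either, so the split is less certain than the sum. When protein-coding transcripts alone were summed, the log2 difference of Egr3 in HO-rWNT5A against RA was 0.23 (limma adjusted p = 0.300), in place of 0.44. Of the 36 annotated transcripts of the 10 genes, 12 averaged at least 1 FPKM and 9 were at 0 in every library. None of the 12 was called in any comparison, where 0.00765% of all transcripts were called in HO against RA, 0.0115% in HO-rWNT5A against HO and 0.0191% in HO-rWNT5A against RA. At an unadjusted p under 0.05, the members' transcripts numbered 6 in HO against RA, 1 in HO-rWNT5A against HO and 7 in HO-rWNT5A against RA. Of all transcripts tested, 11.3%, 6.81% and 11.2% stood so in these comparisons. Egr3-204, let in by its HO values, was among the 6 and was the 1 in HO-rWNT5A against HO. Egr3-202 was among the 7 in HO-rWNT5A against RA. It averaged 0.993 FPKM in RA, under the filter, against 1.23 in HO and 1.65 in HO-rWNT5A, so that count is not free of the filter either. Egr1-201, which held 100% of Egr1, had a limma adjusted p of 0.0638 in HO against RA at this level.

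**Figure D3:**
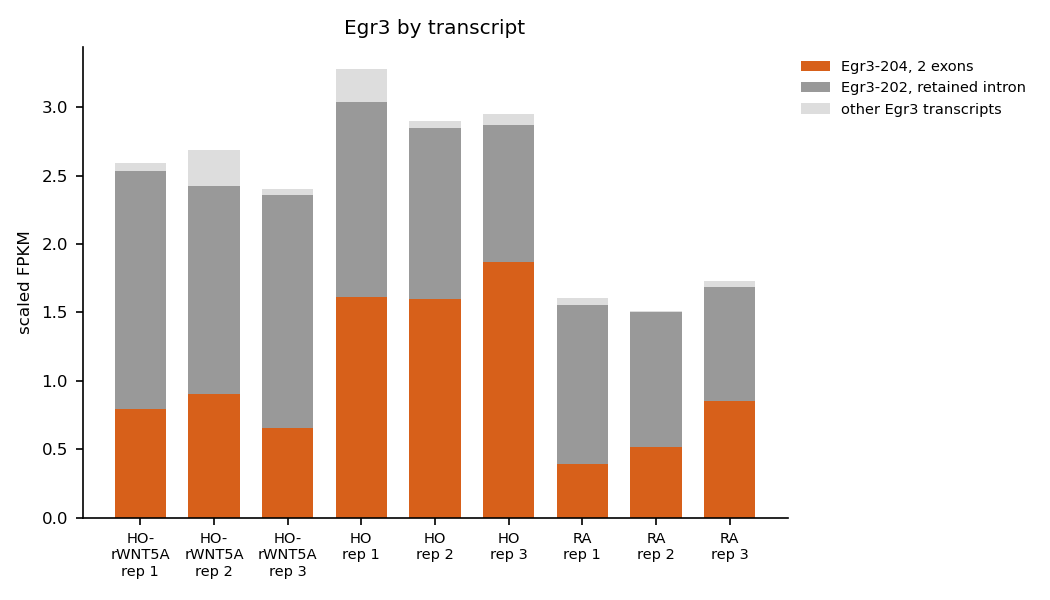
Egr3 in each library as stacked bars of scaled FPKM (vertical axis, from 0), split into the spliced Egr3-204, the retained-intron Egr3-202 and the other Egr3 transcripts, in the order HO-rWNT5A, HO, RA. The spliced part is 1.60 to 1.87 in the HO libraries, 0.657 to 0.902 in HO-rWNT5A and 0.395 to 0.856 in RA.

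Atf3 (chromosome 1, 191170296 to 191218039, minus strand) encodes a stress-induced bZIP factor that can repress or activate, alone or paired with JUN proteins. Atf3 had 4.51, 5.04 and 6.48 scaled FPKM in HO-rWNT5A, 4.89, 7.73 and 5.53 in HO and 2.81, 2.86 and 2.85 in RA libraries. The RA libraries lay close together and below all others, while the HO-rWNT5A and HO libraries spread and overlapped, with HO replicate 2 the highest. Atf3 rose in HO to 2.13 times the RA mean, a log2 difference of 0.86 ± 0.15 (SE, limma adjusted p = 0.0217), and in HO-rWNT5A to 1.88 times, a difference of 0.71 (limma adjusted p = 0.0267). Of the 10 genes it had the largest difference in HO against RA with the pseudocount of 1, but with a pseudocount of 5 Egr1 was higher (0.59, and 0.49 for Atf3), and so was Egr3 without HO replicates 2 and 3 (0.71, and 0.62 for Atf3). The call in HO against RA was lost without RA replicate 1 (0.0759), RA replicate 2 (0.0938) or RA replicate 3 (0.0850). In HO-rWNT5A against RA it was lost without HO-rWNT5A replicate 2 (0.0833), HO-rWNT5A replicate 3 (0.0851) or any 1 RA library (0.0808 to 0.0920).

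The FOS factors bind DNA when paired with a partner such as a JUN protein. Among them, Fosl1 rose in both comparisons with RA. Fosb and Fos passed the test in HO-rWNT5A against RA and missed it in HO against RA, and Fosl2 passed it in neither. Fosl1 (chromosome 19, 5447547 to 5455946, plus strand), the gene of FRA-1, had 10.1, 12.2 and 11.7 scaled FPKM in HO-rWNT5A, 9.66, 11.4 and 11.6 in HO and 6.75, 6.14 and 7.86 in RA libraries. The RA libraries were below all 6 others, and the HO-rWNT5A and HO libraries overlapped. Fosl1 rose in HO against RA by a log2 difference of 0.59 ± 0.10 (SE, limma adjusted p = 0.0232), at 1.57 times the RA mean, and in HO-rWNT5A against RA by 0.64 (limma adjusted p = 0.00989), at 1.64 times. In HO against RA the call was lost without HO replicate 2 (0.0701), RA replicate 1 (0.0811), RA replicate 2 (0.0965) or RA replicate 3 (0.0541), and in HO-rWNT5A against RA without RA replicate 1 (0.0517).

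The exons of Fosl1 share 1163 bases with Ccdc85b on the opposite strand, and since it is not given in the sources used here whether strand was kept in counting, reads there could count for either gene. Ccdc85b, named for this overlap after its values were seen, had 1.99 to 3.15 scaled FPKM in HO-rWNT5A, 1.93 to 2.79 in HO and 2.28 to 2.80 in RA libraries. It overlapped in all groups and differed by a log2 value of -0.03 in HO against RA (limma adjusted p = 0.927). The exons of Jun and Junb overlap those of Junos and Prdx2 in the same way, by 232 and 173 bases. Junos had 1.10 to 2.11 scaled FPKM over all libraries. Prdx2 was above Junb in every library, with 193 to 196 in HO-rWNT5A, 183 to 225 in HO and 197 to 201 in RA. It differed by a log2 value of 0.05 in HO against RA (limma adjusted p = 0.747). How far reads of Prdx2 enter the values of Junb was not tested.

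Fosb (chromosome 7, 19302696 to 19310051, minus strand) was the lowest of the 10 genes. It had 1.51, 1.57 and 1.34 scaled FPKM in HO-rWNT5A, 1.54, 1.35 and 1.29 in HO and 0.788, 0.739 and 0.898 in RA libraries. The RA libraries were again below the rest, and the other groups overlapped. Fosb rose in HO-rWNT5A to 1.82 times the RA mean, a log2 difference of 0.45 (limma adjusted p = 0.0258). In HO it stood at 1.72 times the RA mean, with a difference of 0.40 ± 0.091 that missed the threshold (SE, limma adjusted p = 0.0522), and that had an adjusted p of 0.0418 without HO replicate 3. Fosb rested on about 64 to 130 fragments per library.

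Fos (chromosome 12, 85473890 to 85477273, plus strand), the founding member of the family, had 4.68, 4.87 and 4.71 scaled FPKM in HO-rWNT5A, 4.86, 4.10 and 4.75 in HO and 3.62, 3.41 and 3.60 in RA libraries. All RA libraries were below the other 6. Fos rose in HO-rWNT5A to 1.34 times the RA mean, a log2 difference of 0.34 (limma adjusted p = 0.0311), and stood at 1.29 times in HO, a difference of 0.29 ± 0.073 (SE, limma adjusted p = 0.0732). The calls of Fos and Fosb in HO-rWNT5A against RA were each lost without any 1 of the 6 libraries compared, with adjusted p of 0.0788 to 0.117 for Fos and 0.0597 to 0.11 for Fosb.

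Fosl2 (chromosome 5, 32135801 to 32157842, plus strand), the gene of FRA-2, had 36.2, 34.2 and 35.7 scaled FPKM in HO-rWNT5A, 32.7, 32.6 and 34.1 in HO and 32.7, 32.8 and 32.5 in RA libraries. The HO and RA libraries overlapped, and the HO-rWNT5A libraries were above both. The log2 difference was 0.02 in HO against RA, with a 95% interval of -0.09 to 0.13 (limma adjusted p = 0.860), and 0.11 in HO-rWNT5A against RA, with an interval of 0.01 to 0.22 (limma adjusted p = 0.216). Fosl2 rested on about 4100 to 5500 fragments per library, the highest estimate among the 10 genes.

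The JUN factors can pair with each other as well as with FOS proteins. Junb (chromosome 8, 84974484 to 84978718, minus strand), a weaker activator than JUN at many AP-1 sites, had 86.2, 76.0 and 74.1 scaled FPKM in HO-rWNT5A, 86.1, 80.5 and 67.7 in HO and 59.9, 57.5 and 64.7 in RA libraries. The RA libraries were lowest, and HO replicate 3 lay just above them. Junb stood at 1.29 times the RA mean in HO (log2 difference 0.35 ± 0.093, SE, limma adjusted p = 0.0861) and at 1.30 times in HO-rWNT5A (0.37, limma adjusted p = 0.0532), past the threshold in neither. Without HO replicate 3 the adjusted p in HO against RA was 0.0213, and in HO-rWNT5A against RA it was under 0.05 without HO replicate 1 (0.0424) or HO replicate 3 (0.0172).

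Jun (chromosome 4, 95049034 to 95052222, minus strand), the gene of c-JUN and the substrate that names the JNK kinases, had 24.9, 26.2 and 24.9 scaled FPKM in HO-rWNT5A, 24.0, 24.6 and 25.7 in HO and 22.8, 22.9 and 23.0 in RA libraries. The RA libraries were lowest in a narrow range. The log2 difference was 0.11 in HO against RA, with a 95% interval of 0 to 0.22 (limma adjusted p = 0.284), and 0.14 in HO-rWNT5A against RA, with an interval of 0.03 to 0.25 (limma adjusted p = 0.143).

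Added WNT5A made no difference past the threshold in any of the 10 genes. In HO-rWNT5A against HO, 0 of the 10 were called by limma, where 0.00723% of all genes were, and 1 of the 10, Egr3, had an unadjusted p under 0.05, as did 9.27% of all genes. This comparison shares the HO libraries with HO against RA and the HO-rWNT5A libraries with HO-rWNT5A against RA. Egr3 had a log2 difference of -0.18, with a 95% interval of -0.36 to -0.01 (unadjusted p = 0.0436, limma adjusted p = 0.530). Egr1 differed by -0.11, with an interval of -0.24 to 0.03 (limma adjusted p = 0.618), although its 3 HO-rWNT5A libraries were all below the 3 HO libraries, as held for 6.75% of all genes. Fosl2 was the one member with all HO-rWNT5A libraries above all HO libraries, by 0.09, with an interval of -0.01 to 0.20 (limma adjusted p = 0.572), where 6.30% of all genes stood so.

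For the other 7 genes the HO-rWNT5A and HO libraries overlapped. Atf3 had the widest interval, -0.47 to 0.18 around a log2 difference of -0.14, and Jun the narrowest of these 7, -0.08 to 0.14 around 0.03. The intervals of Egr2 (-0.24 to 0.20), Fos (-0.11 to 0.21), Fosb (-0.15 to 0.25), Fosl1 (-0.17 to 0.28) and Junb (-0.19 to 0.22) also held 0. The median of the 10 differences was 0.02, and that of all genes 0. A miss of the threshold does not show that the groups were alike within these intervals.

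The 10 genes spanned a wide range of levels, set out here on the length-scaled FPKM scale as means over the 9 libraries. Junb averaged 72.5, Fosl2 33.7, Egr1 29.6, Jun 24.3, Fosl1 9.71, Atf3 4.74, Fos 4.29, Egr3 2.40, Egr2 1.66 and Fosb 1.22 scaled FPKM. Junb thus stood above 95.6% of the genes tested and Fosb above 4.4%. In order of level Egr1 was number 3 in HO-rWNT5A and number 2 in HO, where its libraries overlapped with those of Fosl2, but number 4 in RA, below Jun without overlap. Atf3 stood above Fos in HO-rWNT5A, where their libraries overlapped, and in HO, where they did not, and below Fos in RA, without overlap. Egr3 and Egr2 overlapped in RA, at 1.62 ± 0.108 and 1.57 ± 0.202 (SD, n = 3 each), and were apart in HO-rWNT5A and in HO.

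**Figure D4:**
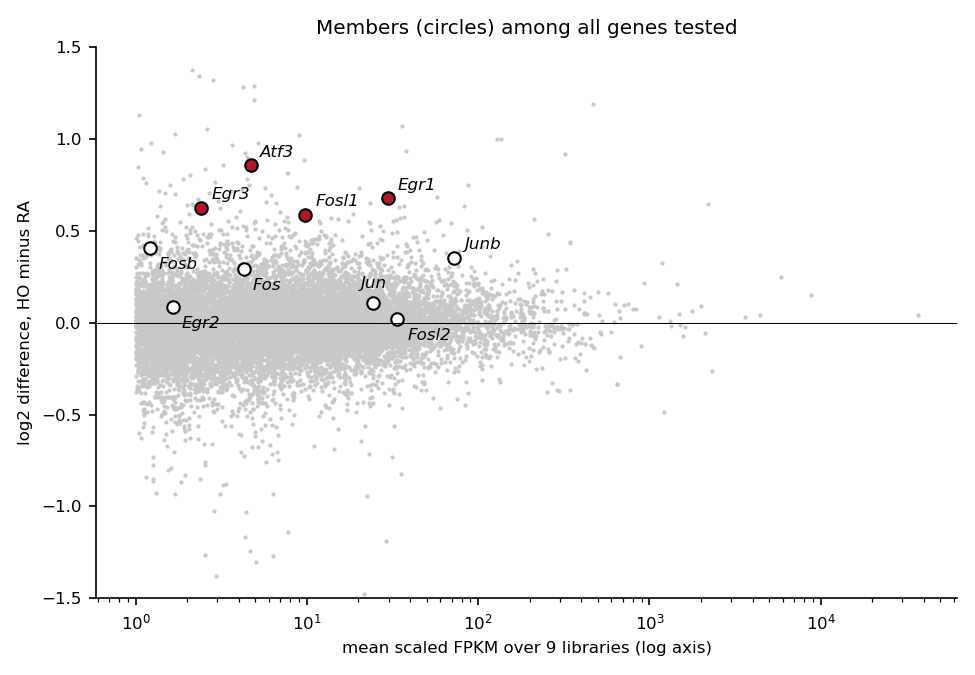
Log2 difference of HO minus RA (vertical axis) against the mean scaled FPKM over 9 libraries (horizontal log axis) for the genes tested (grey points), with the 10 genes as circles, filled where called. Atf3 lies highest of the 10 at 0.86 and Fosl2 lies on the zero line at 0.02, and 6 genes beyond 1.5 on either side are not drawn.

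Within the set, likeness over the 9 libraries was described by the correlation of each gene with the mean z-score of the other 9. Pearson's r was 0.97 for Fosb, 0.95 for Egr1, 0.94 for Fos, 0.92 for Fosl1 and 0.91 for Egr3. It was lower for Junb (0.84), Jun (0.82) and Atf3 (0.80), and lowest for Fosl2 (0.50) and Egr2 (0.39). The 9 points share their libraries and fall into 3 low RA libraries and 6 higher ones, so r mainly follows that step, and it is given as a description. Among 7716 protein-coding genes averaging at least 5 FPKM, the 5 most like the mean of the 10 were Nol4l, Poglut1, Pdk4, Rpl7l1 and Klhl11, with r of 0.989, 0.981, 0.975, 0.968 and 0.966 over the 9 libraries. On the deposited scale, without the library factors, they ranked 1, 3, 6, 4 and 10, so Pdk4 and Klhl11 were not among the first 5 there. Nol4l averaged 8.65 ± 0.107 scaled FPKM in HO-rWNT5A, 8.91 ± 0.373 in HO and 6.15 ± 0.352 in RA (SD, n = 3 each). Pdk4, a kinase that restrains the pyruvate dehydrogenase complex, averaged 14.0 ± 0.594 in HO-rWNT5A, 12.5 ± 0.0587 in HO and 8.74 ± 0.432 in RA.

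RefSeq promoter windows on GRCm38.p6 were at hand for 7 of the 10 genes, all but Egr1, Egr3 and Fosl1. The 250 bases before the RefSeq start, 5′ to 3′ on the gene's strand, are shown for 3 genes called in a comparison with RA, Atf3, Fosb and Fos, and for 2 that were not, Egr2 and Jun. Capitals mark every match to the motifs named after the sequences.
Atf3, chr1:191183334-191183583, minus strand: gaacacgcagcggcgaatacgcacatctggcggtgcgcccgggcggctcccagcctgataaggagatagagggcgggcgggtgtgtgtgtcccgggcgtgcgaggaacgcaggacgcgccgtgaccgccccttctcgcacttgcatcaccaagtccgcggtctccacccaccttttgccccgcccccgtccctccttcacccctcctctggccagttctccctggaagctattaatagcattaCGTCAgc
Fosb, chr7:19310046-19310295, minus strand: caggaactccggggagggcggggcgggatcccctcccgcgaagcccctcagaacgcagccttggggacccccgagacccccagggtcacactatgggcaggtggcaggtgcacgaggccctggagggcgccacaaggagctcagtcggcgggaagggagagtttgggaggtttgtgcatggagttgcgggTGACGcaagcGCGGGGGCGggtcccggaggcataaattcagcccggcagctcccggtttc
Fos, chr12:85473640-85473889, plus strand: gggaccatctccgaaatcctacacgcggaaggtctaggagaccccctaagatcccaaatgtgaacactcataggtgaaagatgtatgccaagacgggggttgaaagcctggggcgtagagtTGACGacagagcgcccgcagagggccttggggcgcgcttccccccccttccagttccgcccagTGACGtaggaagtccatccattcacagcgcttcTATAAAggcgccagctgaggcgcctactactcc
Egr2, chr10:67537619-67537868, plus strand: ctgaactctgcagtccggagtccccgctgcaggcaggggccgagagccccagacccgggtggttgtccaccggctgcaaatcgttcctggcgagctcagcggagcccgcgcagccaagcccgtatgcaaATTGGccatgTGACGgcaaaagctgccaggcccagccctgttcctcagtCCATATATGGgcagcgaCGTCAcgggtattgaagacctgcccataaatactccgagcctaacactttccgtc
Jun, chr4:95052223-95052472, minus strand: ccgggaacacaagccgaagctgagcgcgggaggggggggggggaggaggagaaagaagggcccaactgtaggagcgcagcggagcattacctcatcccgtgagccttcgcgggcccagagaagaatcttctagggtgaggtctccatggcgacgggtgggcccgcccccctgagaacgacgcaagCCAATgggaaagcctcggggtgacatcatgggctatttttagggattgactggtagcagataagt

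The motifs were searched on both strands of the windows. The core of the cyclic AMP response element, TGACG, which CREB and ATF proteins bind and which was added after the sequences had been seen, was in 5 of the 7 windows and in 17.8% of all 32851 windows. It lay at -129 and -66 in Fos, at -60 in Fosb, at -106 in Junb and, on the other strand, at -7 in Atf3, while Egr2 had one on each strand, at -111 and -55. Fosl2 and Jun had none. The full element, TGACGTCA, which contains the core and was in 1.55% of all windows, and the AP-1 site, TGANTCA, in 6.75%, were in none of the 7. The EGR site GCGNGGGCG was in the Fosb window at -50 and in the Fosl2 window at -79, and in 4.70% of all windows. The TATA box TATAAA was in the Fos window at -33 and in 12.4% of all windows. CCAAT was in those of Egr2, Jun and Junb and in 33.8% of all, and the CArG box that SRF binds was in that of Egr2 at -72 and in 1.47% of all. The window of Fosl2 ends at a RefSeq start that lies 671 bases downstream of the start of its main GENCODE transcript. The whole Fosl2 window, with its EGR site, thus lies downstream of that transcript's start. Egr2 and Junb, which had the core, were not called in any comparison. The GC content of the 7 windows was 58.4 to 68.8%, with a median of 52.4% over all windows. A match describes the letters in the window and not binding.

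The genes around these factors were described from lists of pathway members, whose counts at an unadjusted p under 0.05 are to be read against 18.2% of all genes tested in HO against RA, 9.27% in HO-rWNT5A against HO and 21% in HO-rWNT5A against RA. Positive differences made up 48.2%, 51.2% and 48.7% of all genes tested in the same comparisons. Of 13 relatives of the AP-1 and EGR factors, 9 were tested, and 0 were called by limma in any of the 3 comparisons, with median log2 differences of -0.02 in HO against RA, 0.04 in HO-rWNT5A against HO and 0.05 in HO-rWNT5A against RA. At an unadjusted p under 0.05 there were 1 in HO against RA, 1 in HO-rWNT5A against HO and 1 in HO-rWNT5A against RA, of 9 tested, which is not above the share of all genes in the comparisons with RA. Jund, the JUN factor known for steady expression, averaged 117 ± 7.96 scaled FPKM in HO-rWNT5A, 132 ± 28.7 in HO and 101 ± 4.46 in RA (SD, n = 3 each). HO replicate 2 stood alone at 165, and the log2 difference in HO against RA was 0.36 (limma adjusted p = 0.166). Nab1 and Nab2, corepressors that bind EGR proteins, had log2 differences of -0.10 (limma adjusted p = 0.540) and -0.02 (limma adjusted p = 0.920) in HO against RA.

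Of 14 SRF, ternary complex and CREB activators, all tested, 0 were called by limma in any comparison, with medians of 0.06 in HO against RA, 0.02 in HO-rWNT5A against HO and 0.06 in HO-rWNT5A against RA. At an unadjusted p under 0.05 there were 3 in HO against RA, 0 in HO-rWNT5A against HO and 4 in HO-rWNT5A against RA, of 14 tested and near the shares of all genes in the comparisons with RA. Srf averaged 22.7 ± 1.08 scaled FPKM in HO-rWNT5A, 21.2 ± 0.644 in HO and 22.6 ± 0.361 in RA, with a log2 difference of -0.09 in HO against RA (limma adjusted p = 0.407). Its ternary complex partners Elk1, Elk3 and Elk4 differed by -0.08, 0.05 and 0.06 in HO against RA, with limma adjusted p of 0.633, 0.700 and 0.607.

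Of 26 genes of the ERK, JNK and p38 cascades, all tested, 0 were called in HO against RA and 0 in HO-rWNT5A against HO by limma, and 3 rose in HO-rWNT5A against RA, where the list's median was -0.01. Of all genes tested, 4.34% were called in HO-rWNT5A against RA, and 2.42% were called as higher. At an unadjusted p under 0.05 there were 4 in HO against RA, 0 in HO-rWNT5A against HO and 7 in HO-rWNT5A against RA, of 26 tested and near the shares of all genes in the comparisons with RA, and 1 of the 4 and 2 of the 7 were lower. Map2k4, a kinase upstream of JNK, had 27.3, 26.6 and 28.9 scaled FPKM in HO-rWNT5A and 23.6, 22.6 and 22.5 in RA libraries, a log2 difference of 0.26 ± 0.053 (SE, limma adjusted p = 0.0271). Rps6ka1, a kinase activated by ERK, had 6.39, 5.64 and 5.99 in HO-rWNT5A and 4.84, 4.72 and 4.86 in RA, a difference of 0.27 ± 0.064 (SE, limma adjusted p = 0.0448). Egfr, the receptor upstream of the ERK cascade, had 45.9, 46.4 and 47.6 in HO-rWNT5A and 40.4, 38.6 and 42.0 in RA, a difference of 0.21 ± 0.050 (SE, limma adjusted p = 0.0493). None of the 3 overlapped between these groups. All 3 calls were lost without any 1 of the 6 libraries compared, with adjusted p of 0.0733 to 0.101 for Map2k4, 0.0866 to 0.140 for Rps6ka1 and 0.0912 to 0.172 for Egfr, and those of Rps6ka1 and Egfr also without HO replicate 1 (0.0502 and 0.0554).

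Of 8 EGFR family ligands, 5 were tested and 0 were called by limma in any comparison, with a median of 0.23 in HO against RA, -0.08 in HO-rWNT5A against HO and 0.25 in HO-rWNT5A against RA. The differences were positive for 5, 1 and 5 of the 5 in these comparisons. At an unadjusted p under 0.05 there were 4 in HO against RA, 0 in HO-rWNT5A against HO and 3 in HO-rWNT5A against RA, of 5 tested. Of 25 reported target genes of AP-1 and EGR factors, 19 were tested. In HO against RA 0 of them were called by limma, with a median of 0.15, and in HO-rWNT5A against HO 0 were called, with a median of -0.01. The differences were positive for 18 of 19 in HO against RA, 7 of 19 in HO-rWNT5A against HO and 15 of 19 in HO-rWNT5A against RA. At an unadjusted p under 0.05 there were 6 in HO against RA, 1 in HO-rWNT5A against HO and 6 in HO-rWNT5A against RA, where 1 of the last 6 was lower. In HO-rWNT5A against RA the median was 0.15 and 1 rose, Ptgs2, the inducible cyclooxygenase. Of all genes tested, 4.34% were called in that comparison and 2.42% were called as higher. With 1 call among 19, the list is not set apart from these shares. Ptgs2 had 33.1, 32.4 and 43.1 scaled FPKM in HO-rWNT5A, 23.0, 31.9 and 30.1 in HO and 18.6, 20.0 and 20.2 in RA libraries. The 3 groups did not overlap, with HO-rWNT5A highest. The log2 difference was 0.84 ± 0.13 in HO-rWNT5A against RA (SE, limma adjusted p = 0.00840), 0.50 in HO against RA (limma adjusted p = 0.0805, and 0.0323 without HO replicate 1) and 0.34 in HO-rWNT5A against HO (limma adjusted p = 0.495).

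**Figure D5:**
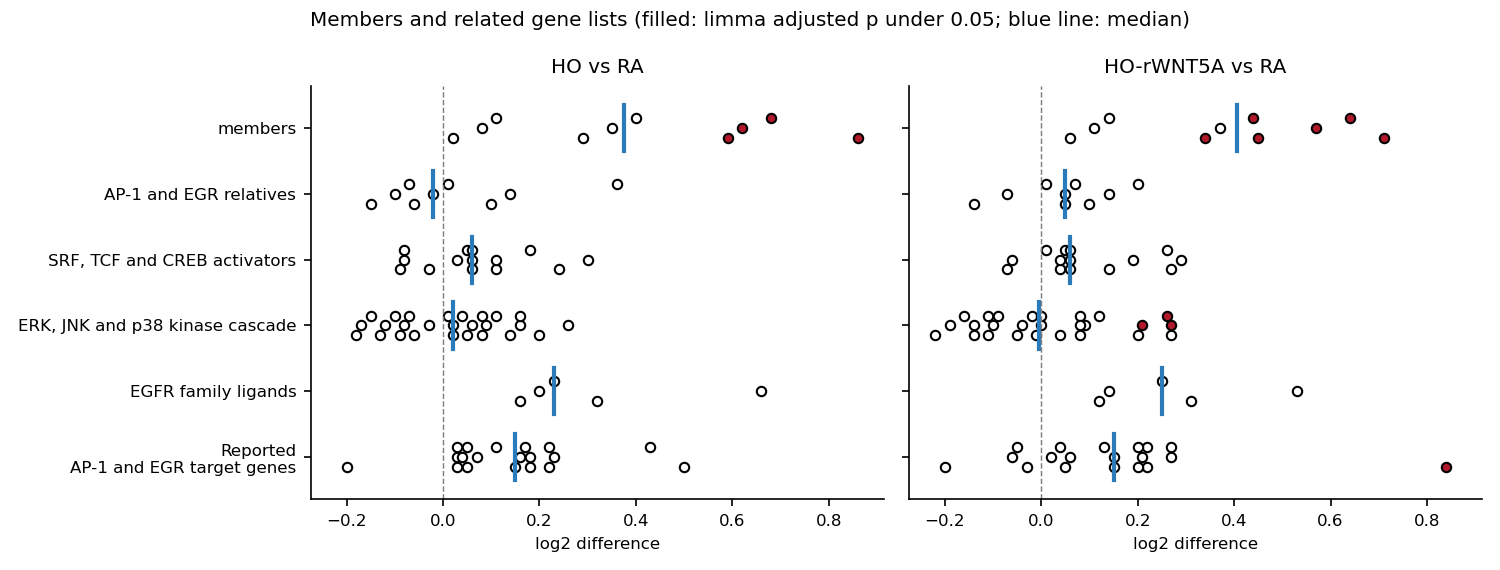
Log2 differences (horizontal axes) of the 10 genes and of the tested genes of 5 related lists (rows) in HO against RA and HO-rWNT5A against RA, with 1 circle per gene, filled where limma's adjusted p was under 0.05, and a blue line at each list's median. The median of the 10 genes is 0.38 and 0.41 in these comparisons, and those of the kinase cascade list are 0.02 and -0.01.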

How the data were processed

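Skewer 0.2.2 trimmed the paired 150-base reads of total RNA, STAR 2.5.3a aligned them, StringTie 1.3.1 assembled and merged transcripts, and gffcompare 0.9.9c compared these with Ensembl, per the labels' protocols. FastQC 0.11.2, DESeq2 and the builds mm10 and hg38 stand in the submitters' processing notes with no role given. The authors deposited 1 FPKM value for each of 143043 transcripts in each of 9 libraries, with no counts. Low FPKM values were whole multiples of 1 fragment in 4.1 to 5.4% of transcripts, at a tolerance of 0.02 and with 4.0% for evenly spread values, so counts could not be recovered and depth is only a rough estimate.

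The table's identifiers are those of mouse, and 99.36% of its Ensembl transcripts were found in GENCODE M21 (GRCm38), from which names and coordinates were taken. The deposited FPKM were summed per gene, and each library was divided by its median ratio to the geometric mean over genes with at least 1 FPKM in every library (factors 0.9458 to 1.0393). Genes averaging at least 1 FPKM were tested with limma 3.58.1 in R 4.3.3 on log2 of the deposited FPKM, scaled in this way, plus a pseudocount of 1, which understates changes of low genes. All 9 libraries entered 1 fit with a variance trend, the tests were two-sided, and Benjamini-Hochberg adjustment ran over all 13831 genes, with a threshold of 0.05. Intervals are 95% from the moderated t distribution. Python 3.11.15 with pandas 2.3.3 made the joins, numpy 2.4.6 the sums, and matplotlib 3.10.9 the plots. The procedure was tested on simulated data with known changes, drawn as independent normal values for each gene. Its outcome is not given here, so it adds no support to the calls above.

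No 2 libraries held identical values, and libraries of the same group correlated at 0.9857 to 0.9932 and those of different groups at 0.9826 to 0.9909. The 10 genes, the lists and the tests were chosen with earlier results of these data known. Named besides the 10 genes are list members past the threshold, at most 4 per list and comparison, Jund, Srf, Nab1, Nab2, Elk1, Elk3 and Elk4 whatever their values, and the 5 protein-coding genes most like the mean of the 10. For each comparison 22 alternatives were set in advance, and 1, which leaves out HO replicates 2 and 3, was added after seeing the data. Promoter windows and their coordinates are from RefSeq on GRCm38.p6.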

Additional observations from a re-analysis of the deposited data

How the results depend on the processing

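The number of the 10 genes called in HO against RA was 4, and 2 with no filter on low values, 2 of the 5 left by a filter of at least 5 FPKM, 1 without HO replicates 2 and 3, and 1 to 6 when 1 library was left out (1 without RA replicate 2, 6 without HO replicate 3). For HO-rWNT5A and RA it was 6, and 2 with no filter, 3 of 5 at 5 FPKM, and 1 to 7 with 1 library left out (1 without RA replicate 1). It was 0 in HO-rWNT5A against HO under all 23 alternatives. The other alternatives gave 3 to 5 and 4 to 7. The direction of the 10 genes against RA held throughout, except for Fosl2, whose sign changed in 4, and Egr2, which was 0 in 1, both in HO against RA. Egr1 was called in 23 of 23 alternatives in both comparisons with RA. In HO against RA Egr3 was called in 20 of 22, Atf3 in 17 of 22, Fosl1 in 15 of 23, Fosb in 4 of 22 and Junb in 1 of 23. In HO-rWNT5A against RA Fosl1 was called in 21 of 23, Egr3 and Atf3 in 16 of 22 each, Fosb in 13 of 22, Fos in 12 of 22 and Junb in 9 of 23. The cause of these changes was not tested.

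Over all genes, 272 were called in HO against RA (164 higher, 108 lower), 103 higher and 179 lower on the deposited scale, 55 with equal totals, 59 with the 2 groups alone, 74 with no filter, 20 without HO replicates 2 and 3, and 2 to 697 with 1 library left out. Between HO-rWNT5A and RA the count was 600 (335 higher, 265 lower), 209 higher and 615 lower on the deposited scale, 93 higher and 163 lower with equal totals, 224 with no filter, 1338 with the 2 groups alone, and 125 to 1030 with 1 library left out. With the replicate block 4, 0 and 4 of the 10 genes and 122, 2 and 387 of all genes were called in HO against RA, HO-rWNT5A against HO and HO-rWNT5A against RA. The deviations of same-numbered libraries correlated at -0.116 to 0.279, with no comparison where every pair exceeded 0.1, so the numbers were not taken to pair the samples. By rough estimate 64 to 310 fragments per library stand behind Egr2, Egr3, Fosb, Fos and Atf3, which limits their precision.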
